A study of Mus musculus with 6 samples.

Results

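The HOX genes were the 39 rows of the deposited table whose symbol is Hox followed by a cluster letter and a number, of 23940 gene symbols in all. Membership was set by the symbol alone, with 11 in the Hoxa cluster, 10 in Hoxb, 9 in Hoxc and 9 in Hoxd. The family itself was chosen with earlier results of these data known. RNA was sequenced from CD45-negative cells that had been sorted out of 6 YUMM1.7 melanomas grown in C57BL/6 mice. YUMM1.7 is a mouse melanoma line with an activating Braf mutation, and CD45, the product of Ptprc, marks leukocytes. A group of 3 tumours had received no MAPK inhibitor, and the other 3 were residual tumours on a BRAF inhibitor. Both groups share the line and the sort. Which inhibitor was used, at what dose and for how long, is not given in the sources used here. Tumours are numbered within each group, but whether each came from a separate mouse is not stated; the p-values therefore cover variation among these tumours, which may be partly technical. Sorting against CD45 leaves tumour cells together with stromal and vascular cells. In such a mixture fewer cells of a type and less RNA per cell cannot be told apart. Leukocyte markers were still above 0, with their sums given below.

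HOX proteins are homeodomain transcription factors that give cells their position along the body axis in the embryo. The genes lie in 4 clusters, and genes at one end of a cluster (low paralog numbers) act towards the head while those at the other end (high numbers) act towards the tail and the tips of the limbs. Members with the same number in different clusters are paralogs. Adult skin fibroblasts keep much of this pattern as a record of where in the body they arose, Polycomb proteins keep unused HOX genes silent, and TALE homeodomain proteins (PBX, MEIS and PKNOX) bind DNA together with HOX proteins.

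Values are FPKM, fragments scaled to transcript length and library size, so levels can be set side by side between genes. The total FPKM of a library ran from 414834 to 921297, and genes of short RNAs held 23.0% to 40.5% of it; the number of reads behind the values is unknown. Of 10 melanocyte and melanoma markers, Tyrp1, Dct and Mlana were listed at 0 in all 6 libraries and Sox10 reached at most 0.114 FPKM, whereas Tyr lay between 3.02 and 5.99 FPKM and Mitf between 4.43 and 23.6 FPKM, so several defining melanocyte genes were near or at 0 in these melanomas. Ptprc was between 0.118 and 2.18 FPKM. Genes with a mean of at least 1 FPKM were tested between the groups with limma (adjusted p under 0.05). Over all 12075 of them 8.76% rose and 10.3% fell, which is the background for the marker counts below. Of the 12 fibroblast markers all were tested, 8 rose on the inhibitor and none fell, and their summed level was 882 to 1346 FPKM before treatment and 7878 to 8392 FPKM on it, with Col3a1 going from 531 ± 103 to 4761 ± 128 FPKM (SD, n = 3 each). Of the 10 endothelial markers 9 were tested and 8 rose, with summed levels of 21.5 to 30.4 and 75.8 to 130 FPKM; Pecam1, Kdr and Egfl7 lost their calls without pre-treatment tumour 2 or on-BRAFi tumour 1 or 2. Of the 8 pericyte and smooth muscle markers 6 were tested, 3 rose and 1 fell (28.6 to 40.1 and 59.9 to 105 FPKM). The fall of Cspg4 lost its call at the same total FPKM and without on-BRAFi tumour 1 or 3, and the rise of Notch3 lost it whichever library was left out. Of the 5 adipocyte markers only Fabp4 was tested, and it rose (list sums of 1.84 to 2.85 and 18.0 to 158 FPKM). The other 4 had means under 1 FPKM. Mitf was the single melanocyte marker of 3 tested that rose (8.70 to 13.6 and 27.6 to 30.0 FPKM over the list), and none of 5 Schwann cell (14.4 to 21.4 and 19.0 to 33.7 FPKM), 2 skeletal muscle (3.22 to 4.74 and 3.18 to 5.21 FPKM) or 4 leukocyte markers tested (29.2 to 30.9 and 18.8 to 39.0 FPKM) changed. Keratinocyte markers were listed at 0 for 5 of 7 genes, with a sum of at most 0.607 FPKM in any library.

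Most of the HOX genes were listed at 0 or stayed under 1 FPKM, and Hoxd11 and Hoxb7 stood apart. Of the 39 genes, 8 were listed at 0 in all 6 libraries, 25 more stayed under 1 FPKM in every library, and 6 reached 1 FPKM in at least 1 library. A mean of at least 1 FPKM over the 6 libraries was reached by 3 of the 39 (Hoxd11, Hoxb7 and Hoxc6), against 50.4% of all gene symbols, and 24.6% of all symbols were listed at 0 throughout. Hoxd11 and Hoxb7 together held between 64.2% and 83.0% of the summed FPKM of the 39 genes in each library.

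**Figure D1:**
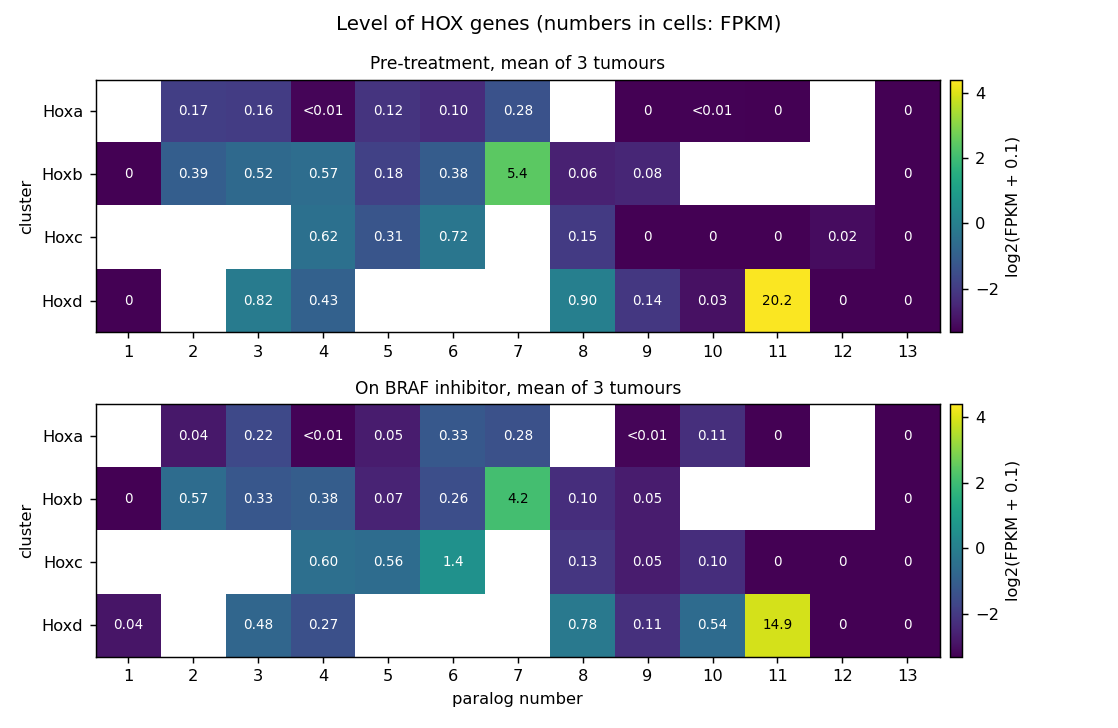
Mean FPKM of HOX genes by cluster (rows) and paralog number (columns), before treatment (top, n = 3) and on BRAF inhibitor (bottom, n = 3); colour is log2(FPKM + 0.1), and white cells show no value. Hoxd11, at 20.2 and 14.9 FPKM, and Hoxb7, at 5.35 and 4.16 FPKM, are the brightest cells in both groups, and the column of paralog number 13 is at 0.

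Hoxd11, which with its paralog Hoxa11 patterns the forearm and the kidney in mouse embryos, was the highest HOX gene in every library. It was at 26.99, 10.1 and 23.6 FPKM in pre-treatment tumours 1, 2 and 3, and at 16.2, 9.87 and 18.5 FPKM in on-BRAFi tumours 1, 2 and 3. The groups overlapped, and tumour 2 was the lowest of each group. Over the 6 libraries 85.5% of all gene symbols had a lower mean. Its paralogs Hoxa11 and Hoxc11 were listed at 0 throughout, so the whole signal of paralog group 11 came from this gene.

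The genes beside it in the HoxD cluster were far lower. Hoxd12 and Hoxd13, its neighbours on the tail side, were listed at 0 in all libraries, and on the other side the means were 0.286 FPKM for Hoxd10 and 0.124 FPKM for Hoxd9, 61.4 and 142 times less than Hoxd11 over the 6 libraries. For Hoxd10 the ratio of means was 729 before treatment and 27.4 on the inhibitor. The ratio before treatment rests on 1 tumour, with Hoxd10 at 0.0832 FPKM, since the others were listed at 0. Neither gene passed the test between the groups given below. Hoxd11 made up 80.4% to 94.1% of the summed FPKM of the cluster. RefSeq and GENCODE M21, both on GRCm38, give Hoxd11 a coding transcript and a non-coding transcript that starts upstream of it, and the RefSeq spans of Hoxd11 and Hoxd10 overlap. The table has 1 row for Hoxd11, the annotation behind it is not given in the sources used here, and the libraries are unstranded, so the share of the level that belongs to the coding transcript was not tested.

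The 250 bases before each of these starts are shown because they are where the highest HOX gene and its far lower neighbour Hoxd10 begin. They are RefSeq promoter sequences on GRCm38.p6, forward strand, 5′ to 3′, not coordinates of the mm9 genome named in the submitters' processing notes. Capitals mark matches, on either strand, to the HOX-PBX motif TGATTNAT and the E-box CACGTG, motifs chosen with these sequences in view.
Hoxd11 coding start, chr2:74682073-74682322: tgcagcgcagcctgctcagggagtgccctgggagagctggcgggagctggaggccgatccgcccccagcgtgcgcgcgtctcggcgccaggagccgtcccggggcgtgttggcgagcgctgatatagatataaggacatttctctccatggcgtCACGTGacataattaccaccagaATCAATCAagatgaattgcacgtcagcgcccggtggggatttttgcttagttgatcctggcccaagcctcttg
Hoxd11 non-coding start, chr2:74679308-74679557: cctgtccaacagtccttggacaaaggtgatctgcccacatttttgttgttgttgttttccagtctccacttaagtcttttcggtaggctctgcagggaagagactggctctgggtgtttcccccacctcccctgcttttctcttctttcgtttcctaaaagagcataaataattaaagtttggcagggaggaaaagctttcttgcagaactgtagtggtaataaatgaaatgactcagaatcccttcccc
Hoxd10 start, chr2:74691641-74691890: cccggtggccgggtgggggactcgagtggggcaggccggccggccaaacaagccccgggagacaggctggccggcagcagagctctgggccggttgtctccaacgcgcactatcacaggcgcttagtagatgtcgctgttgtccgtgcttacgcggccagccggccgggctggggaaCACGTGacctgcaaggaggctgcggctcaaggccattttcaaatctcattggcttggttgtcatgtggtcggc
The coding start of Hoxd11 had 1 match to each motif, the Hoxd10 start had 1 E-box, and the non-coding start had neither. TGATTNAT was found in 2.82% and CACGTG in 6.02% of the 32851 promoters in the RefSeq table at this length, and in 2 and 4 of the 24 promoters that the table holds for 22 HOX genes. HOX promoters were richer in CpG, with a median observed over expected CpG of 0.721 against 0.373 for all promoters, and the 3 sequences printed had 0.880, 0.160 and 0.755 in that order. Motif matches and CpG content describe the letters only.

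Hoxb7, a gene of trunk patterning whose human counterpart is known in melanoma cells as an activator of FGF2, ranked next. It was at 5.85, 6.18 and 4.04 FPKM before treatment and at 4.35, 2.70 and 5.42 FPKM on the inhibitor, in overlapping ranges. Its lowest library, at 2.70 FPKM, was above the highest value of any HOX gene below it in rank, and its highest was under the lowest of Hoxd11. Hoxb7 made up 61.3% to 75.4% of the HoxB sum. The other member of paralog group 7, Hoxa7, lay between 0.260 and 0.321 FPKM in all 6 libraries.

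Hoxc6, a gene of thoracic and mammary development, was the last of the 3 genes over a mean of 1 FPKM. It was at 0.481, 1.18 and 0.495 FPKM before treatment and at 2.05, 0.757 and 1.34 FPKM on the inhibitor. Below Hoxb7 every gene overlapped the next in the order of means, which ran Hoxc6, Hoxd8, Hoxd3, Hoxc4, Hoxb2, Hoxb4, Hoxc5, Hoxb3, Hoxd4, Hoxb6, Hoxd10, Hoxa7 and Hoxa6, from 1.05 down to 0.215 FPKM. All of these but Hoxd10 have paralog numbers 2 to 8. In the body-axis classes defined below, Hoxd3, Hoxb2 and Hoxb3 are anterior, Hoxd10 is posterior and the rest are central.

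**Figure D2:**
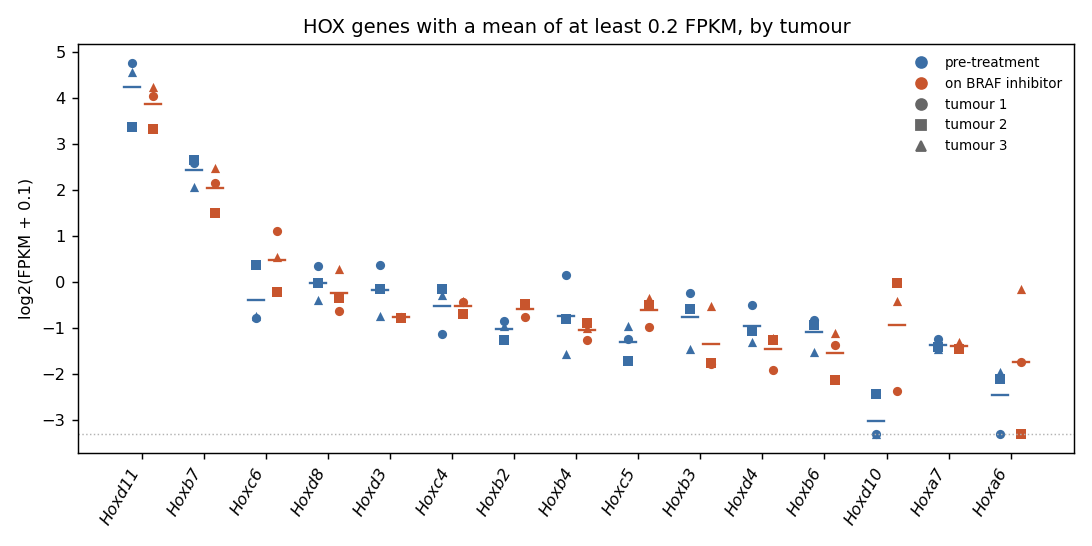
log2(FPKM + 0.1) of the 15 HOX genes with a mean of at least 0.2 FPKM, ordered by mean; blue is pre-treatment, orange is on BRAF inhibitor, marker shape is the tumour number, short lines are group means and the dotted line is 0 FPKM. Hoxd11 (9.87 to 26.99 FPKM) and Hoxb7 (2.70 to 6.18 FPKM) are separated from all others, and the groups overlap in 12 of the 15 genes.

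By body-axis class, the anterior genes (paralog numbers 1 to 3) summed to between 1.57 and 2.79 FPKM per library over 8 genes. Central genes (4 to 8) summed to between 6.88 and 11.6 FPKM over 15 genes, all 15 of them above 0 in some library, and to 4.02 to 6.20 FPKM without Hoxb7. Posterior genes (9 to 13) were the most often listed at 0 throughout, with 7 of 16. Without Hoxd11 the 15 others summed to at most 1.20 FPKM in any library. All 4 genes of paralog group 13, which shape digits, hair, tail and prostate, were listed at 0. The other genes at 0 in every library were Hoxa11, Hoxc11, Hoxd12 and Hoxb1, the last a gene of the hindbrain.

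The design sets tumours on BRAF inhibitor against untreated tumours of the same line. None of the HOX genes passed the test. Of the 3 members with a mean of at least 1 FPKM, 0 changed at an adjusted p of 0.05 and 0 had an unadjusted p under 0.05 (limma on log2(FPKM + 0.1), Benjamini-Hochberg adjustment over 12075 genes); over all genes tested the same fit called 19.1% (8.76% rose and 10.3% fell) and gave 34.2% an unadjusted p under 0.05. With the filter lowered to a mean of 0.2 FPKM, 15 members were tested and 0 changed, against 16.1% of 14825 genes (7.74% rose and 8.34% fell), and 1 had an unadjusted p under 0.05, against 31.6%. With no filter 31 members were tested and limma called 0, again with 1 unadjusted p under 0.05. Over all 23940 symbols less the 5880 at 0 throughout, that fit called 2229 (1114 higher and 1115 lower). The remaining 24 of the 39 were under 0.2 FPKM.

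For Hoxd11 the log2 fold change was -0.37 ± 0.42 (SE; 95% interval -1.37 to 0.63; limma, adjusted p = 0.566), with group means of 20.2 ± 8.91 and 14.9 ± 4.48 FPKM (SD, n = 3 each). Its spread between tumours of a group was wide: the coefficient of variation was 44.0% before treatment and 30.1% on the inhibitor, against medians of 19.2% and 17.4% over the 2346 genes within 1.5-fold of its level. Without pre-treatment tumour 2 the log2 fold change was -0.81, without pre-treatment tumour 1 or on-BRAFi tumour 2 it was -0.10, and with array weights it was -0.01. It did not pass in any of these fits. For Hoxb7 the log2 fold change was -0.39 ± 0.32 (95% interval -1.16 to 0.38; limma, adjusted p = 0.437), with means of 5.35 ± 1.15 and 4.16 ± 1.37 FPKM. Both intervals run from a clear decrease to an increase, so neither the direction nor the absence of a change is shown. Rescaling each library to the same total FPKM turned the sign of each, to 0.17 and 0.15. In none of these 3 genes were the groups apart, against 40.4% of the genes with a mean of at least 1 FPKM (20.9% upwards and 19.5% downwards). For Hoxc6 the log2 fold change was 0.86 ± 0.63 (95% interval -0.63 to 2.36; limma, adjusted p = 0.379).

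**Figure D3:**
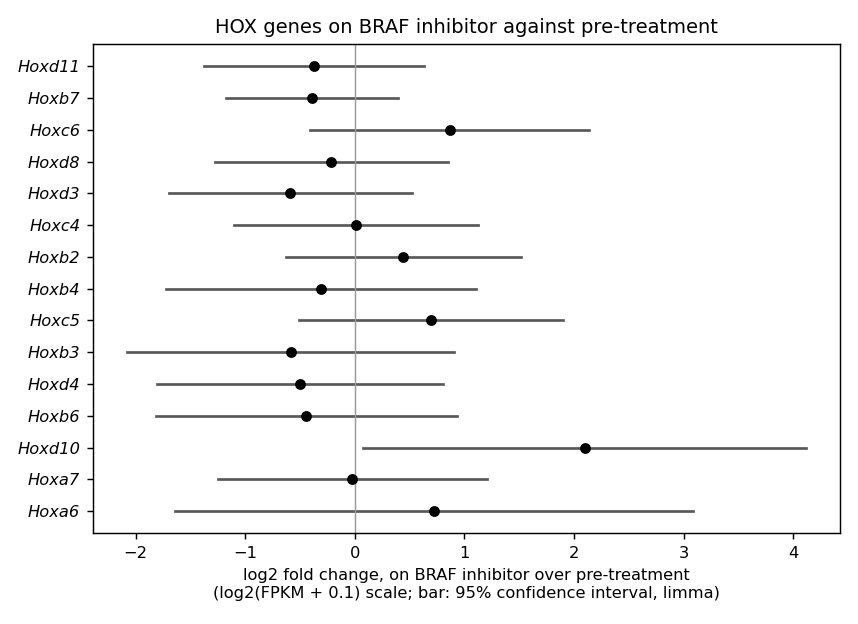
log2 fold change, on BRAF inhibitor over pre-treatment, with its 95% confidence interval from limma for the 15 HOX genes with a mean of at least 0.2 FPKM, in the order of their means. All intervals but that of Hoxd10 (0.07 to 4.12) contain 0.

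Among the 15 members tested at the lower filter, 9 had a negative and 6 a positive log2 fold change. Their median was -0.21 against 0.03 over all genes in that fit. After rescaling to the same total FPKM 4 of 16 were negative, with a median of 0.33 against 0.56 over all genes. The groups did not overlap in 3 of the 15, against 37.7% of the genes at this filter, namely Hoxd10 and Hoxb2 with higher values on the inhibitor (background 20.7%) and Hoxd3 with lower ones (background 17%). Hoxb2, a hindbrain gene, was at 0.455, 0.315 and 0.412 FPKM before treatment and at 0.483, 0.617 and 0.606 FPKM on the inhibitor (log2 fold change 0.44; limma, adjusted p = 0.539). Hoxd3, a gene of the neck vertebrae, was at 1.18, 0.790 and 0.496 FPKM and then at 0.487, 0.478 and 0.489 FPKM (log2 fold change -0.59; limma, adjusted p = 0.428). The 3 treated tumours were almost equal for Hoxd3, and the lowest untreated tumour lay just above them.

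Hoxd10, a gene of the hindlimb and its motor neurons, had the largest fitted difference of the 15. It was listed at 0, 0.0832 and 0 FPKM before treatment and was at 0.0933, 0.886 and 0.652 FPKM on the inhibitor, so on-BRAFi tumour 1 lay close to pre-treatment tumour 2 and the other treated tumours were higher. The log2 fold change was 2.10 (95% interval 0.07 to 4.12; limma, unadjusted p = 0.0442, adjusted p = 0.147), and under no alternative setting did it pass after adjustment.

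The other posterior genes above 0 were lower still. Hoxa10, a gene of the uterus and lumbar region, was at 0, 0 and 0.0113 FPKM before treatment and at 0.0697, 0.217 and 0.0308 FPKM on the inhibitor. Hoxc9, a thoracic gene, was listed at 0 in the 3 untreated tumours and was at 0.0991, 0.0263 and 0.0289 FPKM in the treated ones. Hoxc10, a lumbar gene, was listed at 0 in 4 libraries and at 0.243 and 0.0627 FPKM in on-BRAFi tumours 1 and 3. These 3 genes lie so near 0 that their values may come from few reads. Hoxa9 appeared in 1 treated library at 0.0239 FPKM and Hoxc12 in 1 untreated library at 0.0603 FPKM, while Hoxb9 and Hoxd9 were above 0 in all 6, at up to 0.129 and 0.295 FPKM, in overlapping groups.

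**Figure D4:**
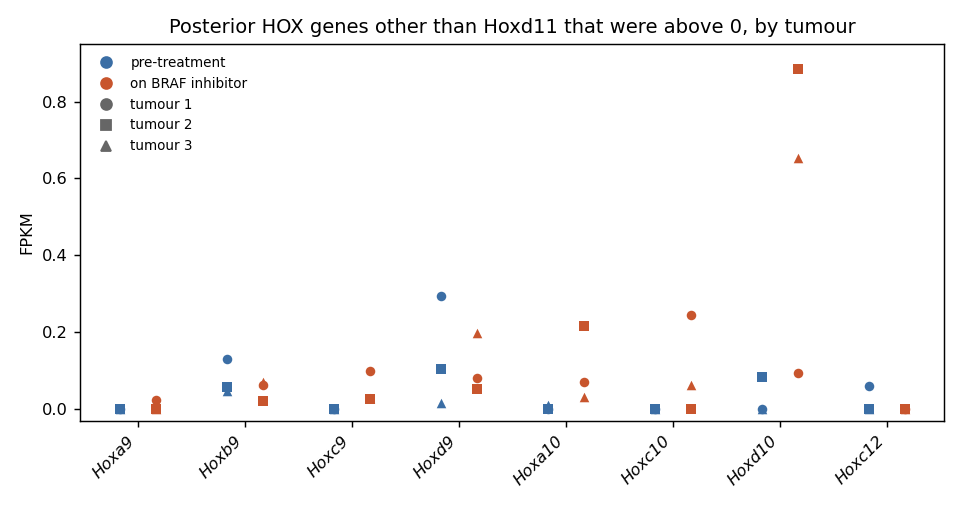
FPKM of the 8 posterior HOX genes (paralog numbers 9 to 12) other than Hoxd11 that were above 0 in any library; blue is pre-treatment, orange is on BRAF inhibitor and marker shape is the tumour number. Hoxd10 reaches 0.886 and 0.652 FPKM in 2 treated tumours, and all other points lie under 0.3 FPKM.

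Summed over the 15 posterior genes other than Hoxd11, the level was 0.484, 0.246 and 0.0715 FPKM before treatment and 0.673, 1.20 and 1.04 FPKM on the inhibitor, without overlap and with most of the treated sum from Hoxd10 in tumours 2 and 3. The sum was not tested between the groups, and Hoxd10 did not pass after adjustment. Of the 12 fibroblast markers 8 rose, and the list summed to 882 to 1346 and 7878 to 8392 FPKM. None of the 12 was at 0 in all 6 libraries. Pdgfra (135 ± 30.4 and 154 ± 8.88 FPKM), Fap (42.9 ± 3.94 and 43.3 ± 5.38 FPKM), Pdgfrb and Thy1 did not pass. Of the 9 endothelial markers tested 8 rose, as did Fabp4, the only adipocyte marker tested. The part of these markers in the sum was not tested. Among the 16 HOX genes with a mean above 0 and under 0.2 FPKM, 6 were above 0 in more treated than untreated libraries, against 44.2% of all genes at that level, and 2 in fewer, against 29.4%. The groups lay apart upwards in 2 of the 16 (Hoxa10 and Hoxc9; background 7.45%) and downwards in 1 (background 2.41%). The gene apart downwards was Hoxa5, a gene of lung and shoulder development, at 0.179, 0.0718 and 0.123 FPKM and then at 0.0657, 0.0641 and 0.0230 FPKM.

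In the remaining anterior and central genes the groups overlapped, and none tested passed. Of the central genes with a mean of at least 0.2 FPKM, Hoxc5 was at 0.313 ± 0.106 and 0.563 ± 0.140 FPKM, Hoxc4 at 0.620 ± 0.231 and 0.598 ± 0.0728 FPKM, and Hoxd8 at 0.901 ± 0.258 and 0.775 ± 0.297 FPKM. Hoxb4 was at 0.570 ± 0.397 and 0.382 ± 0.0611 FPKM, Hoxb6 at 0.377 ± 0.116 and 0.258 ± 0.118 FPKM, and Hoxd4 at 0.425 ± 0.156 and 0.269 ± 0.0906 FPKM (SD, n = 3 in each group). Hoxb3 was at 0.520 ± 0.241 and 0.326 ± 0.232 FPKM. Hoxa6 was listed at 0 in 1 library of each group and reached 0.801 FPKM in on-BRAFi tumour 3. Of other genes with a mean under 0.2 FPKM, the highest values were 0.332 FPKM for Hoxa3, 0.309 for Hoxa2, 0.239 for Hoxb5, 0.345 for Hoxc8, 0.161 for Hoxb8, 0.0787 for Hoxd1 and 0.0144 for Hoxa4. Hoxa3, Hoxb3 and Hoxd3 share their RefSeq spans with neighbouring HOX genes, as do 10 of the 39 genes in all, so low values of these neighbours may include shared reads.

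The transcripts between and beside the HOX genes were listed at 0 or low. Of 15 such genes in the table, 11 were listed at 0 in all libraries, against 24.6% of all symbols. Among the 11 were the non-coding RNAs Hotair and Hottip, the homeobox gene Evx2 and the 6 microRNA genes of the clusters. A poly(A) library does not capture the short mature products of these 6 genes, so the 0 of each says little about its level. The antisense gene Hoxd3os1 ranged from 0 to 1.85 FPKM in overlapping groups, and none of the 15 had a mean of 1 FPKM. The ParaHox and caudal genes, relatives of the HOX genes that act in the gut and tail, were listed at 0 for 5 of 6, and Gsx1 reached 0.0474 FPKM.

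The TALE cofactors were above 0 throughout. Of the 9 genes, 8 were tested, 3 rose and none fell, against 8.76% of all genes rising in the same fit, with a median log2 fold change of 0.51 against -0.01 over all genes. Pknox2, a PKNOX family member, was at 1.40, 1.27 and 0.901 FPKM before treatment and at 5.95, 7.84 and 5.95 FPKM on the inhibitor, a log2 fold change of 2.38 ± 0.29 (SE; limma, adjusted p = 0.00305). Meis3 rose from 0.744 ± 0.312 to 3.69 ± 0.486 FPKM (limma, adjusted p = 0.0141) and Pbx2 from 3.13 ± 0.445 to 6.82 ± 0.995 FPKM (adjusted p = 0.0190), without overlap between the groups. Meis3 missed the threshold without on-BRAFi tumour 1 or 3, and Pbx2 without on-BRAFi tumour 2 or 3 (limma; the largest adjusted p over all alternatives was 0.0679 for Meis3 and 0.0632 for Pbx2). Among those that did not pass, Meis2 was at 16.5 ± 1.52 and 10.6 ± 2.75 FPKM and Pbx3 at 10.8 ± 1.99 and 7.56 ± 2.18 FPKM. The 3 genes that rose and the fibroblast and vessel markers that rose, given above, were picked by the same call. Their shared direction follows from that, and the part of those markers was not tested.

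**Figure D5:**
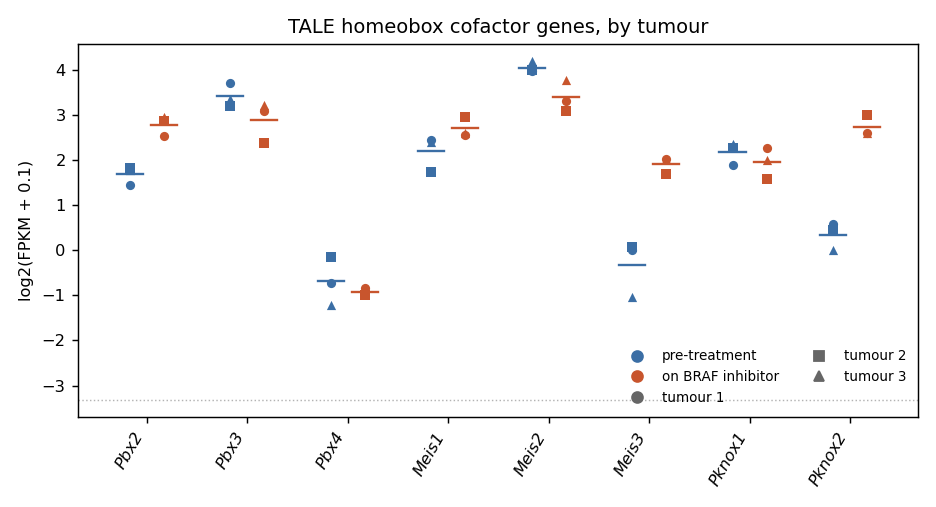
log2(FPKM + 0.1) of 8 TALE cofactor genes by tumour; blue is pre-treatment, orange is on BRAF inhibitor, marker shape is the tumour number, short lines are group means and the dotted line is 0 FPKM. Pknox2, Meis3 and Pbx2 lie higher in all 3 treated tumours, and Meis2 is at 16.5 and 10.6 FPKM.

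Of 21 tested Polycomb genes, which encode the silencers of HOX clusters, 2 rose, 1 fell and 18 did not pass, against 8.76% of all genes rising and 10.3% falling, with a median log2 fold change of 0.12. Ezh2, the main H3K27 methyltransferase of dividing cells, fell from 30.9 ± 6.97 to 11.1 ± 0.776 FPKM (limma, adjusted p = 0.00490), and its relative Ezh1 rose from 6.58 ± 1.62 to 15.5 ± 2.24 FPKM (adjusted p = 0.0160; 0.0542 without on-BRAFi tumour 2). Cbx6, a chromodomain protein of the complex that binds that mark, rose 1.90-fold (limma, adjusted p = 0.00982). Rbbp4, Rbbp7 and Rnf2, the most abundant members that did not pass, had log2 fold changes of -0.63, -0.13 and 0.12. After rescaling to the same total FPKM 6 rose and 1 fell, against 2042 higher and 520 lower over all genes. Without short RNAs in the total 9 rose and 1 fell, against 3875 higher and 682 lower over all genes. Of 14 trithorax and H3K27 demethylase genes, which act against Polycomb, 1 fell and none rose, against 10.3% and 8.76% of all genes (median log2 fold change -0.15). With equal library totals 1 rose and 1 fell, and without short RNAs in the total 4 rose and 1 fell, beside those all-gene counts. The gene that fell was Dpy30, a subunit shared by the H3K4 methyltransferase complexes, from 123 ± 26.4 to 33.2 ± 5.65 FPKM (limma, adjusted p = 0.00282). Psip1, Ash1l and Ash2l, the highest of the rest, had log2 fold changes of -0.63, 0.27 and 0.07.

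Of the 26 other positional homeobox and T-box genes of dermis and limb, 10 were tested, 2 rose and none fell, against 8.76% and 10.3% of all genes, with a median log2 fold change of 0.31, and 4 were listed at 0 throughout, among them Tbx4, the T-box gene of the hindlimb. Prrx1, a gene of limb and dermal mesenchyme, rose from 102 ± 15.2 to 170 ± 13.6 FPKM (limma, adjusted p = 0.0276), and Meox2, of the muscle precursors and vessels, from 0.655 ± 0.289 to 3.17 ± 0.823 FPKM (adjusted p = 0.0239). The call for Prrx1 was lost without any 1 of pre-treatment tumours 2 and 3 and the 3 treated tumours, and that for Meox2 without pre-treatment tumour 2 or on-BRAFi tumour 1 or 2 (limma; the largest adjusted p over all alternatives was 0.0896 for Prrx1 and 0.105 for Meox2). Tbx3 and Prrx2 had log2 fold changes of -0.89 and -0.20 and did not pass. Among 13 tested genes of retinoic acid, which induces HOX genes in embryos, 1 rose and 1 fell, against 8.76% and 10.3% of all genes (median log2 fold change 0.42). At the same total FPKM 5 rose and none fell, against 2042 higher and 520 lower over all genes. Without short RNAs in the total 6 rose and none fell, against 3875 higher and 682 lower over all genes. Aldh1a1, an enzyme of retinoic acid synthesis, rose from 2.08 ± 0.278 to 24.0 ± 4.56 FPKM (limma, adjusted p = 0.000458), and Crabp1, which binds retinoic acid in the cytoplasm, fell from 787 ± 195 to 426 ± 67.1 FPKM (adjusted p = 0.0460). Crabp1 lost its call under most of the alternative settings, the same-total scaling and a pseudocount of 1 among them. Crabp2, Dhrs3 and Rarg had log2 fold changes of -0.89, 0.99 and 0.42 and did not pass. The 8 fibroblast markers that rose were picked by the same call as Prrx1, Meox2 and Aldh1a1 too. Their shared direction follows from that, and the part of the markers was not tested.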

How the data were processed

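Per the labels' protocols, unstranded TruSeq libraries were prepared from polyadenylated RNA that a QIAGEN RNeasy micro kit had purified; the labels give the reads as single-end in one place and paired-end in another. The authors deposited FPKM for 1 column per tumour. The submitters' processing notes name mm9, TopHat2, TopHat, Cuffnorm and Cuffdiff, with neither version nor role. The annotation is not given in the sources used here, nor is any between-library scaling. Depth is unknown, so no interval that needs read counts is given, and a value of 0 is called listed at 0.

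Each of the 6 columns was assigned to its tumour by name. Values were taken as log2(FPKM + 0.1), genes with a mean of at least 1 FPKM were kept, and the 2 groups were compared with limma 3.58.1 in R 4.3.3 (lmFit, eBayes with trend), two-sided, with Benjamini-Hochberg adjustment over the 12075 genes kept and a threshold of 0.05. Fold changes are treated over untreated, on the log2(FPKM + 0.1) scale, which shrinks those of low genes. The fit was run on simulated data with known changes, for genes with a mean of at least 1 FPKM only. That run checked the size of the fitted changes and set no bound on false or missed calls. With 3 against 3 an exact permutation test cannot go below p = 0.1 and was not used. HOX genes past the threshold, at 5 FPKM or more in a group, or with separate groups have the value in each library, and of each other list the members past the threshold and up to 3 of the most abundant others are named; a few genes counted in the totals are not reported here by name. No label gives a batch. The HOX genes, the lists of cofactors, regulators and cell type markers, and the rule for naming genes were chosen with earlier results of these data known. Figures were drawn with matplotlib 3.10.9 in Python 3.11.15.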

Additional observations from a re-analysis of the deposited data

How the results depend on the processing

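The absence of a HOX call held under every alternative run: 0 HOX genes changed with pseudocounts of 1 and 0.01, with no filter and with minimum means of 5 and 0.2 FPKM, under 4 other scalings, without a trend, with array weights, with a replicate block for the tumour number, and without any 1 library. Lowering the filter to 0.2 FPKM together with each of the other settings, which was chosen after seeing the data, also gave 0, with smallest adjusted p-values of 0.0731 to 0.287 (limma). The number of all genes changed, 2307, was 4557 with totals made equal leaving out short RNAs (3875 higher and 682 lower), 2562 after rescaling to the same total (2042 higher and 520 lower), 1237 with the replicate block, and between 1230 and 1698 without 1 library; the cause was not tested. Tumours of the same number did not deviate together (correlations of -0.03, 0.01 and -0.09 over the genes tested). With 3 tumours in each group these correlations cannot settle whether the numbers pair them, and the tumours were fitted as unpaired. With the block 1 TALE gene rose in place of 3, none of the positional genes passed, and Cbx6 (adjusted p = 0.0517, limma) and Crabp1 lost their calls.

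Rescaling to the same total moved the median log2 fold change of all genes from 0.03 to 0.56 at the lower filter, and it reversed the sign of Hoxd11 (0.17) and Hoxb7 (0.15), as did equal totals without short RNAs (0.22 and 0.20). Hoxd11, Hoxb7 and Hoxc6 did not pass under any setting in which they were tested. Hoxc6 stayed positive under the 4 other scalings. The minimum of 5 FPKM left Hoxd11 as the only HOX gene tested, and Hoxc6 fell under the filter without on-BRAFi tumour 1 or 3.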
